A study of Mus musculus with 96 samples.

Results

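The hippocampus of young mice was compared with the cortex of the same mice, in 8 of the 96 brain mRNA-seq libraries of the series. The 4 hippocampus and the 4 cortex libraries were chosen by their labels: first experiment, naive, 2 months, region hippocampus or cortex. They came from 4 male C57BL/6J mice, numbered 12, 14, 17 and 20, and each mouse gave 1 library per region. These mice carried no transgene, and naive mice had no injection. The labels give 2 months, while the design text of the series gives 3 months. The other 25 mice of the first experiment, also male C57BL/6J, gave a hippocampus and a cortex library each. They were naive mice of 18 months, mice of 18 or 22 months given PBS, the vehicle, or plasma from young mice on 7 days, and mice of 19 months given either on 24 days. They served here as a second set of animals in which the regional difference could be read.

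The hippocampus is an allocortical structure built from the dentate gyrus, whose granule cells project to CA3, and from the fields CA3, CA2 and CA1. The cortex around it is layered, with upper layer neurons that connect cortical areas and deep layer neurons that project out of it. Prox1 encodes a homeodomain protein that sets and keeps the identity of dentate granule cells, so its transcript marks a hippocampal dissection that holds dentate gyrus. The cortex lies close to the striatum, whose spiny neurons express dopamine and adenosine receptors, and to the hippocampus itself. Bulk libraries measure RNA from all cells of a piece of tissue, so fewer cells of a type and less RNA per cell cannot be told apart.

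Promoters of 4 genes that mark the difference are shown, 250 bases before to 50 bases after the start, from the RefSeq table for GRCm38.p6, each on its gene's strand. Prox1 marks the dentate gyrus (chr1:190170778-190171077, minus strand, the first of 2 entries), Fibcd1 marks CA1 (chr2:31845956-31846255, minus strand) and Npy2r is a hippocampal peptide receptor (chr3:82548036-82548335, minus strand). Drd2 is a receptor of striatal neurons and was lower in the hippocampus (chr9:49340153-49340452, plus strand). Capitals mark matches to CAGATG and CAGCTG, 2 E-box forms read by basic helix-loop-helix factors such as the Neurod family, and to TATAAA, the TATA box, on either strand. These motifs do not overlap in the sequences shown.
Prox1: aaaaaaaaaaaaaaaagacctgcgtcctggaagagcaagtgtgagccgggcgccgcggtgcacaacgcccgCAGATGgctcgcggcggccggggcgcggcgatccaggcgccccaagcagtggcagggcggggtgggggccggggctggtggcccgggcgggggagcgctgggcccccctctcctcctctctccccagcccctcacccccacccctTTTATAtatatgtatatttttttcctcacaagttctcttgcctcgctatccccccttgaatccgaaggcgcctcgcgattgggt
Fibcd1: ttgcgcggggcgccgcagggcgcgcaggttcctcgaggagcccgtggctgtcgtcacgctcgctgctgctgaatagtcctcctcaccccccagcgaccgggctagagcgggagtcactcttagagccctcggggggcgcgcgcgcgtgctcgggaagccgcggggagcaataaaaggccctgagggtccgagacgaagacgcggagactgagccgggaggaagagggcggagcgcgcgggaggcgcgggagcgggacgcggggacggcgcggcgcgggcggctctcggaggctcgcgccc
Npy2r: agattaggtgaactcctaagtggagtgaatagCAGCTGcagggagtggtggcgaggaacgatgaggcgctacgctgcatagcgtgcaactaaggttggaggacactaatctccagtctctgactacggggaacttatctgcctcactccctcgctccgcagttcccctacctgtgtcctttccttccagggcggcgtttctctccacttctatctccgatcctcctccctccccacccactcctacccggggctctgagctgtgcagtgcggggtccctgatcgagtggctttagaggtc
Drd2: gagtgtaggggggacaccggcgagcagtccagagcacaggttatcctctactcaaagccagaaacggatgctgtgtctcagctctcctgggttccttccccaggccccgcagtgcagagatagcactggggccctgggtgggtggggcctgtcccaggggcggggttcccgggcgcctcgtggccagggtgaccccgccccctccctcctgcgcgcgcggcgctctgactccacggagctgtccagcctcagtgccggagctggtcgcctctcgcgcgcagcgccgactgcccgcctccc
The Prox1 window held 1 CAGATG and 1 TATAAA, with TATAAA read as TTTATA on the strand shown, the Npy2r window held 1 CAGCTG, and the Fibcd1 and Drd2 windows held none of the 3. Of 32851 promoters in the table, 17.2% held CAGATG, 16.3% CAGCTG and 13.6% TATAAA, so each of these matches is common. In the annotation of GRCm38 used here, Prox1 spans chr1:190118035-190170714, Fibcd1 chr2:31813290-31846005, Npy2r chr3:82538383-82548084 and Drd2 chr9:49340627-49408177, and all are protein-coding.

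The total count was 8832629 in hippocampus 12, 16813520 in hippocampus 14, 11142184 in hippocampus 17 and 1816018 in hippocampus 20. The cortex libraries of the same mice held 14193346, 10212741, 5053543 and 5259701. Hippocampus 20 was thus the shallowest of the 8, and values of its low genes rest on few reads.

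The hippocampus libraries did not all carry the marker of their label. Prox1 stood at 94.5 CPM (counts scaled to a library total of 1000000) in hippocampus 12, 17.2 in hippocampus 14, 91.7 in hippocampus 17 and 29.2 in hippocampus 20. In cortex it stood at 17.5, 17.3, 12.5 and 11.6 CPM in animals 12, 14, 17 and 20. The level in hippocampus 14 lay within the cortical range, and that in hippocampus 20 lay above every young cortex library but below 0.5 times 78.8 CPM, the median of the 29 hippocampus libraries of the first experiment. In the other 25 animals Prox1 ran over 22.2 to 108 CPM in hippocampus (median 78.8) and over 12.9 to 24.9 CPM in cortex (median 16.4). Prox1 is not confined to the dentate gyrus: the young cerebellum held 67.6 to 75.5 CPM.

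**Figure D1:**
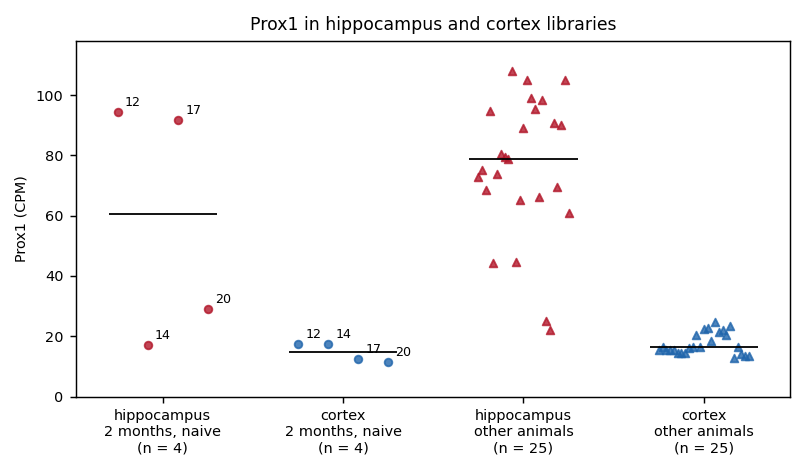
Prox1 in CPM (y axis, from 0) in hippocampus (red) and cortex (blue) libraries of the 4 naive 2-month mice (circles, with the animal number) and of the other 25 animals (triangles); each point is 1 library and black lines are medians. Hippocampus 14 (17.2 CPM) lies among the cortex libraries and hippocampus 20 (29.2 CPM) just above them, while hippocampus 12 and 17 lie above 90 CPM.

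Over all genes tested, hippocampus 14 resembled the cortex. Its log2 CPM correlated with the 4 young cortex libraries at Pearson r of 0.983 to 0.987 across genes, close to the 0.982 to 0.989 that the cortex libraries gave with each other. Hippocampus 12, 17 and 20 correlated with the cortex libraries at 0.953 to 0.968. Hippocampus 14 correlated with hippocampus 12, 17 and 20 at 0.964, 0.963 and 0.963, while hippocampus 12 and 17 correlated at 0.989. These correlations are descriptions, since genes are not replicates. The library labelled hippocampus of animal 14 is kept in the main test, as labelled, and the main counts are therefore also given without animal 14.

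With all 4 animals, no gene passed the test. edgeR's quasi-likelihood test with the animal as a block called 0 of 16819 genes (0.0%) at a Benjamini-Hochberg adjusted p under 0.05, although 2624 had an unadjusted p under 0.05. The smallest adjusted p was 0.109, reached by 4 genes, Drd2 and Ppp1r1b among them. Without the block the same test called 78 genes, 31 higher and 47 lower in hippocampus (0.464% of those tested), DESeq2 with the block called 453 (2.69%) and limma-voom with sample weights called 2268 (13.5%). A single edgeR fit of all 58 hippocampus and cortex libraries of the first experiment called 2151 of 19186 genes for the young contrast (11.2%). Leaving out animal 14 gave 3366 calls among 16011 genes (21.0%), 1510 higher (9.43%) and 1856 lower (11.6%). Animal 14 stands apart by the levels of regional genes themselves, so tests without it describe the other 3 mice and were not made blind to these genes. All calls and adjusted p-values given below without animal 14 carry this limit. Leaving out both low-Prox1 animals, 14 and 20, gave 4073 calls among 17049 genes (23.9%). Leaving out animal 12 or 17 gave 0 calls, and leaving out animal 20 gave 1, Penk (log2 fold change -2.79 ± 0.10 SE, edgeR adjusted p = 0.011). Genes higher in the hippocampus of 4 of 4 animals numbered 1778 (10.6% of those tested), genes lower in 4 of 4 numbered 1695 (10.1%), and the 4 hippocampus and 4 cortex values did not overlap for 1357 genes (8.07%).

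A second reading, with fold changes not taken from the young libraries, came from the other 25 animals. In them edgeR called 10859 of 17456 genes between hippocampus and cortex (62.2%), 5401 higher (30.9%) and 5458 lower (31.3%). Among those that also passed the low-count filter in the young libraries, 478 genes were at least 2-fold higher and 619 at least 2-fold lower in hippocampus. They were followed in the young animals, whose fold changes took no part in choosing them. The filter did use the young libraries. It left out Dsp and Lhx9, for example, which had 0.0595 and 0.595 CPM in hippocampus 14. The 478 higher genes had a median log2 ratio of hippocampus over cortex of 1.32 in animal 12, -0.22 in animal 14, 1.46 in animal 17 and 1.26 in animal 20. The 25 animals themselves ran over 0.74 to 1.70. The 619 lower genes had medians of -1.45, 0.11, -1.51 and -1.23 in animals 12, 14, 17 and 20, against -1.62 to -0.94 in the 25. Animals 12, 17 and 20 thus lay inside the range of the others on both measures, and animal 14 lay outside it on both, on the other side of 0.

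**Figure D2:**
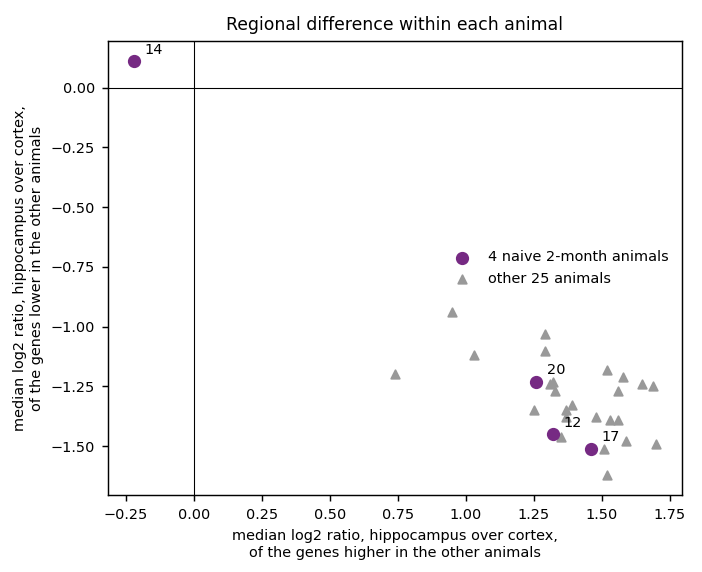
Median log2 ratio of hippocampus over cortex within each animal for the 478 genes higher (x axis) and the 619 genes lower (y axis) in the hippocampus of the other 25 animals; purple circles are the 4 naive 2-month animals and grey triangles the other 25, from which the genes were chosen. Animals 12, 17 and 20 fall among the triangles, and animal 14, at -0.22 and 0.11, stands apart.

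Gene by gene, 98.7% of the 478 higher genes were higher in hippocampus 12 than in cortex 12, 97.3% in animal 17 and 93.5% in animal 20, but 32.4% in animal 14. Of the 619 lower genes, 99.7%, 99.0% and 93.7% were lower in the hippocampus of animals 12, 17 and 20, and 39.4% in that of animal 14. Without animal 14, edgeR called 399 of the 446 higher genes it tested (89.5%) and 493 of the 556 lower genes (88.7%) in the same direction, and 0 in the opposite one. Over all genes tested without animal 14, 9.43% were called higher and 11.6% lower. In the other direction of reading, 1485 of the 1509 higher calls in the young mice without animal 14 (98.4%) and 1827 of the 1853 lower calls (98.6%) were also called in the same direction in the other 25 animals. These made up 29.1% and 36.0% of the calls in the 25 animals, and 1 gene was called in opposite directions. Over all genes tested in the 25 animals, 30.9% were called higher and 31.3% lower.

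**Figure D3:**
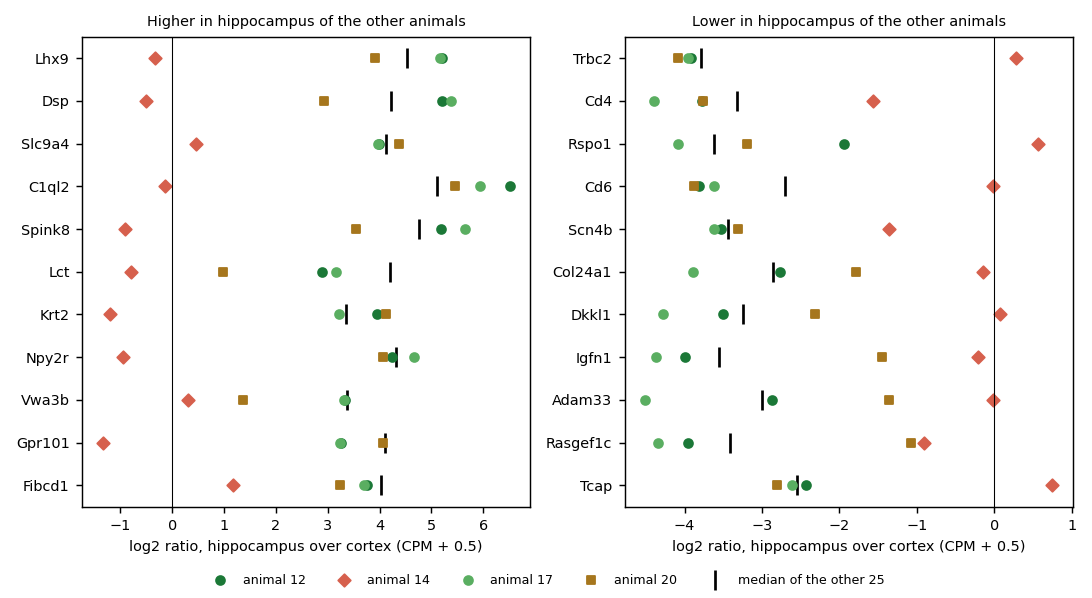
Log2 ratio of hippocampus over cortex (x axis, CPM plus 0.5) in animals 12, 14, 17 and 20 for 11 of the 12 genes of largest change in each direction in the other 25 animals (black ticks, median of the 25). Animals 12, 17 and 20 lie on the side of the 25 for all 22 genes plotted, while animal 14 lies within 1 of 0 or on the other side for most, and lies past 1 on the side of the 25 for Fibcd1 (1.18), Cd4 (-1.57) and Scn4b (-1.36).

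Dentate granule cell genes were higher in hippocampus once animal 14 was left out, when 9 of 13 passed the test higher and 0 lower, against 9.43% and 11.6% of all genes, with a median log2 fold change of 2.36 (0.00 over all genes tested). Prox1, which set hippocampus 14 apart, is among these 9, and the list median equals its own value. With all 4 animals 0 of the 11 tested passed and the median was 0.64, and in the other 25 animals 10 passed higher and 1 lower, against 30.9% and 31.3% of all genes, with a median of 2.09. C1ql2, a secreted C1q-like synaptic protein of mossy fibres, stood at 70.6, 3.09, 54.1 and 21.5 CPM in hippocampus 12, 14, 17 and 20, against 0.282, 3.43, 0.396 and 0.00 CPM in cortex. Hippocampus 14 was level with its own cortex, and that cortex library was the highest of the 4. The log2 fold change of C1ql2 was 4.51 ± 1.29 with all 4 animals (SE, edgeR adjusted p = 0.234). Without animal 14 it was 7.75 ± 0.25, a description with no test, since C1ql2 too was at the cortical level in hippocampus 14. Prox1 itself had a log2 fold change of 1.69 ± 0.47 with all 4 animals (SE, edgeR adjusted p = 0.234). Without animal 14, the hippocampus lowest in Prox1, it was 2.36, which is a description with no test, since Prox1 set that library apart. Prox1os, a transcript antisense to Prox1, had 8.83, 0.773, 5.74 and 1.65 CPM in the 4 hippocampus libraries and 0.916, 0.979, 0.989 and 1.14 CPM in cortex; the libraries do not mark strand, so reads in the 419 bases that both annotated genes share cannot be assigned to either. Il16, a cytokine precursor, had 35.2, 4.88, 38.2 and 13.2 CPM in hippocampus and 3.23 to 4.11 CPM in cortex. Hippocampus 20 held lower levels than hippocampus 12 and 17 for 10 of the 13 dentate genes, Prox1, C1ql2, Dsp, Lct and Il16 among them, and higher levels than both for 3, C1ql3, Plk5 and Calb1. Calb1, the calcium buffer calbindin, did not pass, at 152 to 206 CPM in hippocampus and 162 to 189 CPM in cortex.

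The genes whose level followed Prox1 most closely across the 29 hippocampus libraries of the first experiment were Sema5a (Spearman rho 0.917), Lct (0.901), Dgat2 (0.883), Prox1os (0.882) and Plekha2 (0.881), out of 12766 genes ranked. These are descriptions over libraries that share a region and differ in depth. Between regions they parted: Sema5a, a semaphorin, stood at 95.0, 26.3, 79.2 and 38 CPM in hippocampus and 30.6 to 35.2 CPM in cortex, whereas Plekha2 had 30.8, 12.1, 32.1 and 12.1 CPM in hippocampus and 15.9 to 26.4 CPM in cortex. The log2 fold change of Plekha2 was -0.03 with all 4 animals and 0.17 without animal 14, and neither passed.

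CA1 genes as a sum were also lowest in hippocampus 14 of the 4 hippocampus libraries, at 752 CPM, against 1990 CPM in hippocampus 12, 2140 CPM in hippocampus 17 and 1260 CPM in hippocampus 20. Single genes differed: Mpped1, for one, had 240 CPM in hippocampus 14 and 227 CPM in hippocampus 12. Of 11 CA1 and field-wide genes, 10 passed higher and 0 lower without animal 14 (median 1.33), against 9.43% and 11.6% of all genes. Without the block in all 4 animals 2 passed higher, Fibcd1 and Cabp7, against 0.184% of all genes. In the main test 0 passed (median 1.07). Fibcd1, a transmembrane acetyl-group receptor, stood at 188, 20.9, 181 and 117 CPM in hippocampus 12, 14, 17 and 20, against 13.5, 8.91, 13.5 and 12.0 CPM in cortex. It was higher in hippocampus in 4 of 4 animals and the groups did not overlap, with a log2 fold change of 3.07 ± 0.43 (SE) in the main test (edgeR adjusted p = 0.159), 3.41 ± 0.57 without the block (adjusted p = 0.0402) and 3.65 ± 0.12 without animal 14 (adjusted p = 5.98e-07). Cabp7, a neuronal calcium-binding protein, had 267, 36.3, 213 and 132 CPM in hippocampus and 11.9 to 27.0 CPM in cortex. Zbtb20, a repressor required for hippocampal pyramidal identity, had 678, 175, 784 and 334 CPM in hippocampus and 173, 199, 141 and 144 CPM in cortex, so hippocampus 14 lay inside the cortical range. Spink8, a protease inhibitor gene of CA1, had 30.7, 0.654, 34.2 and 20.9 CPM in hippocampus and 0.198 to 1.66 CPM in cortex.

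Among 12 CA2 and CA3 genes, 8 passed higher and 2 lower without animal 14 (median 0.80), against 9.43% and 11.6% of all genes. Npy2r, the Y2 receptor for neuropeptide Y whose promoter is shown above, had 77.1, 4.70, 72.6 and 46.3 CPM in hippocampus and 3.59, 9.50, 2.37 and 2.28 CPM in cortex (log2 fold change 4.51 ± 0.15 SE without animal 14). Rgs14, a signalling regulator of CA2 neurons, had 115, 45.4, 134 and 79.3 CPM in hippocampus and 39.9 to 70.5 CPM in cortex. The 2 that fell, Spock1 and Coch, both encode extracellular matrix proteins; Coch had 6.68, 40.3, 5.12 and 16.0 CPM in hippocampus and 57.5, 34.8, 66.5 and 54.2 CPM in cortex.

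Upper layer cortex genes were lower in hippocampus without animal 14, when 8 of 12 passed lower and 1 higher (median -1.48). The shares of all genes were 11.6% lower and 9.43% higher. With all 4 animals 0 passed in the main test (median -1.05). In the other 25 animals 10 passed lower and 1 higher, against 31.3% and 30.9% of all genes. Cux2, a homeodomain factor of upper layer neurons, had 23.1, 156, 20.6 and 48.5 CPM in hippocampus 12, 14, 17 and 20, against 120, 91.2, 154 and 161 CPM in cortex. Hippocampus 14 held more Cux2 than its own cortex library. Lamp5, a lysosome-associated membrane protein of neurons, had 30.9, 182, 36.3 and 42.4 CPM in hippocampus and 165 to 283 CPM in cortex (log2 fold change -2.82 ± 0.09 SE without animal 14). The gene of this list that rose was Mdga1, a neuroligin-binding membrane protein, which also passed without the block in all 4 animals. Its level was 38.2, 19.4, 36.2 and 26.4 CPM in hippocampus and 8.11 to 14.2 CPM in cortex.

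Deep layer genes moved in both directions. Without animal 14, 6 of 16 passed higher and 7 lower (median -0.75), against 9.43% and 11.6% of all genes. Foxp2, a transcription factor of layer 6 neurons, had 3.40, 16.7, 2.33 and 2.20 CPM in hippocampus and 15.8 to 27.6 CPM in cortex. Fezf2, a determinant of subcortical projection neurons, was higher in hippocampus in all 4 animals, at 36.2, 40.3, 44.4 and 42.4 CPM against 25.0, 23.3, 23.3 and 20.0 CPM in cortex. It passed without the block (edgeR adjusted p = 0.0136), and hippocampus 14 was here level with the other hippocampus libraries. Crym, a thyroid hormone binding protein, had 242, 47.9, 198 and 224 CPM in hippocampus and 26.3 to 61.7 CPM in cortex.

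Transcription factors of the forebrain split likewise, with 8 of 22 higher and 9 lower without animal 14 (median 0.19). Over all genes the shares were 9.43% and 11.6%. Mef2c, an activity-dependent factor, had 137, 765, 124 and 308 CPM in hippocampus and 594 to 816 CPM in cortex. Neurod6, a helix-loop-helix factor of pyramidal neurons, rose, with 155, 50.2, 194 and 68.8 CPM in hippocampus and 35.1 to 59.7 CPM in cortex. Cortex 14 was itself unlike the other cortex libraries for some factors: Lmo3, a LIM-only cofactor, had 247 CPM there and 94.3 to 113 CPM in cortex 12, 17 and 20, and Nr2f2, a nuclear receptor, had 44.9 CPM there and 11.4 to 18.6 CPM in those 3.

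**Figure D4:**
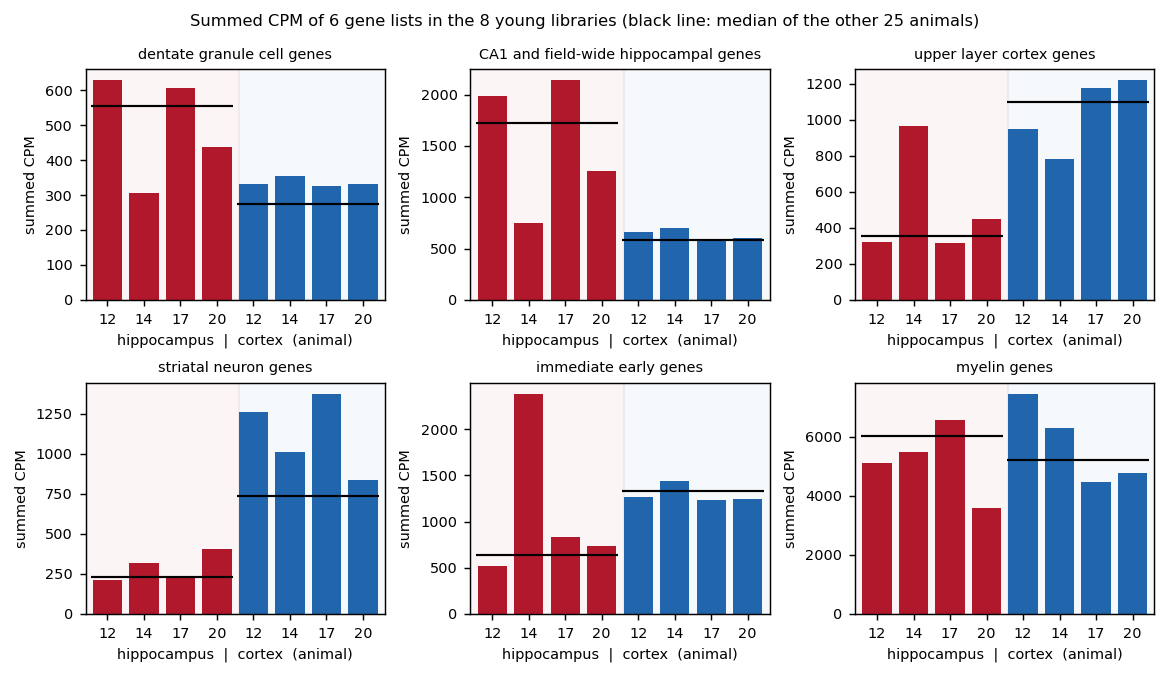
Summed CPM (y axes, from 0) of 6 gene lists in the 4 hippocampus libraries (red, left) and the 4 cortex libraries (blue, right) of animals 12, 14, 17 and 20; black lines are the medians of the other 25 animals. Hippocampus 14 stands near the cortex libraries for dentate genes (306 against 326 to 355) and CA1 genes (752 against 572 to 697). For upper layer genes it lies within their range, and for immediate early genes above all others (2380). For striatal genes all 4 hippocampus libraries (212 to 403) lie below all 4 cortex libraries (834 to 1370).

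Striatal neuron genes differed in every animal, animal 14 included. Their summed level was 212, 315, 232 and 403 CPM in hippocampus 12, 14, 17 and 20, against 1260, 1010, 1370 and 834 CPM in cortex. Of 11 tested, 9 fell in the test without the block, where 0.279% of all genes were called lower. Without animal 14 all 11 fell, against 11.6% of all genes, while 0 passed in the main test. In the other 25 animals all 11 passed lower, against 31.3% of all genes. The median log2 fold change was -2.30 with all 4 animals, -2.48 without animal 14 and -1.76 in the 25. Drd2, the D2 dopamine receptor of indirect pathway neurons, had 2.83, 1.84, 2.15 and 6.06 CPM in hippocampus and 30.7, 18.1, 38.4 and 18.6 CPM in cortex. Its log2 fold change was -3.31 ± 0.34 (SE) in the main test (edgeR adjusted p = 0.109) -3.38 ± 0.35 without the block (adjusted p = 0.00468) and -3.47 ± 0.31 without animal 14 (adjusted p = 8.53e-05). Adora2a, an adenosine receptor of the same neurons, had 2.38, 4.34, 1.79 and 6.06 CPM in hippocampus and 51.2, 33.1, 54.4 and 27.2 CPM in cortex. Ppp1r1b, the phosphatase inhibitor DARPP-32, had 40.1, 67.1, 52.3 and 80.9 CPM in hippocampus and 305, 258, 345 and 235 CPM in cortex. Drd1, Rgs9, Pde10a, Penk, Adcy5 and Rarb also fell without the block. Cortex 20 held the lowest sum of the 4 cortex libraries and hippocampus 20 the highest of the hippocampus libraries. The sums of the other 25 animals ran over 182 to 881 CPM in hippocampus and 290 to 2050 CPM in cortex, so the cortex libraries varied widely in these genes; how much striatal tissue a cortex dissection held was not tested.

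The 78 genes called without the block in all 4 animals were mostly genes on which hippocampus 14 lay on the hippocampal side. Of them, 77 had the same direction in 4 of 4 animals, the groups did not overlap for 77, and 77 were also called without animal 14. Over all genes, 10.6% were higher and 10.1% lower in 4 of 4 animals, 8.07% did not overlap and 21.0% were called without animal 14. The same libraries chose the 78 genes, so a shared direction and a lack of overlap follow largely from that choice. By size of change, the higher ones were led by Fibcd1, Cabp7, Cpne7, Grp, Nkd2, Nrp1, Gfap, Tenm2, Mdga1, Kit, Egfem1 and Itga4, and the lower ones by Cd4, Adora2a, Drd2, Ptprv, Scn4b, Syndig1l, Penk, Ppp1r1b, Rgs9, Drd1, Medag and Tmem215. Tenm2, a teneurin that bridges synapses, had 145, 121, 113 and 127 CPM in hippocampus and 51.5, 65.3, 36.2 and 33.7 CPM in cortex (log2 fold change 1.42 ± 0.18 SE without the block, edgeR adjusted p = 0.0136, and 1.65 ± 0.10 without animal 14). Its 4 hippocampus libraries lay close together, hippocampus 14 among them. Scn4b, a sodium channel beta subunit, had 10.4, 16.2, 11.3 and 9.36 CPM in hippocampus and 126, 42.4, 144 and 97.5 CPM in cortex. Grp, gastrin-releasing peptide, had 19.0, 6.54, 12.7 and 14.3 CPM in hippocampus and 1.14 to 3.53 CPM in cortex. This count rested on single libraries: it was 3180 without hippocampus 14, 172 without cortex 14, and 6 to 34 without any 1 of the other 6.

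Receptor subunits for glutamate and GABA moved in both directions when animal 14 was left out. The counts here stand against 9.43% of all genes higher and 11.6% lower. Of 17 ionotropic glutamate receptor subunits, 3 passed higher and 5 lower (median 0.20). Gria1, the GluA1 subunit of AMPA receptors, had 815, 248, 884 and 512 CPM in hippocampus and 265, 258, 235 and 239 CPM in cortex (log2 fold change 1.54 ± 0.14 SE without animal 14), while Gria4 fell, with 28.8, 76.4, 34.5 and 51.2 CPM in hippocampus and 62.2 to 69.5 CPM in cortex. Of 12 GABA-A subunits, 3 rose (Gabra2, Gabra5 and Gabrb1) and 7 fell. Gabra5, the extrasynaptic alpha subunit of the hippocampus, had 231, 55.6, 263 and 112 CPM in hippocampus and 41.3 to 57.3 CPM in cortex, and Gabrd, the delta subunit, had 23.4, 70.8, 25.0 and 33.6 CPM in hippocampus and 81.3 to 108 CPM in cortex. Hippocampus 14 took the cortical level for Gabra5 and came near it for Gabrd. Of 7 metabotropic glutamate receptors tested, 2 rose, Grm5 among them, and 3 fell, Grm3, Grm4 and Grm8.

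Voltage-gated potassium channel genes fell more often than they rose without animal 14, with 15 of 27 lower and 2 higher (median -0.53), against 11.6% lower and 9.43% higher over all genes. In the other 25 animals 21 passed lower and 4 higher, against 31.3% and 30.9% of all genes. Kcnh5, an EAG-type channel, had 6.68, 32.1, 9.78 and 6.61 CPM in hippocampus and 32.0 to 61.4 CPM in cortex. The 2 that rose were Kcna4 and Kcnd3, both of transient A-type channels. Against the same shares, classical cadherins had 2 higher, near the share over all genes, and 6 lower of 14, and ephrins and Eph receptors 6 higher and 5 lower of 19. Efna5, a repulsive guidance ligand, fell, with 19.7, 81.8, 14.2 and 24.8 CPM in hippocampus and 63.1 to 95.3 CPM in cortex, and Epha6, a receptor for ligands of that class, rose, with 72.2, 27.3, 106 and 52.3 CPM in hippocampus and 19.0 to 39.2 CPM in cortex.

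Interneuron genes had 6 higher and 6 lower of 15 without animal 14 (median 0.01), against 9.43% and 11.6% of all genes. Pvalb, the parvalbumin of fast-spiking cells, had 19.7, 25.9, 26.7 and 18.2 CPM in hippocampus and 42.0, 28.0, 54.8 and 62.6 CPM in cortex, and the groups did not overlap. Nos1, neuronal nitric oxide synthase, rose, with 96.7, 39.3, 73.2 and 104 CPM in hippocampus and 22.6 to 50.2 CPM in cortex. Gad2, a GABA-synthesising enzyme, stood at 120 to 132 CPM in hippocampus and 115 to 134 CPM in cortex and did not pass. Against the same shares, 5 of 18 neuropeptides and neurotrophic ligands rose and 8 fell. Bdnf, a neurotrophin, had 62.9, 78.5, 68.4 and 41.8 CPM in hippocampus and 30.5 to 51.3 CPM in cortex, and Ntf3, another neurotrophin, had 7.70, 1.31, 7.09 and 6.61 CPM in hippocampus and 0.00 to 2.45 CPM in cortex.

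Receptors for corticosteroids went in opposite directions without animal 14. Nr3c2, the mineralocorticoid receptor, rose, with 186, 27.8, 193 and 81.5 CPM in hippocampus and 34.8 to 40.6 CPM in cortex (log2 fold change 2.05 ± 0.19 SE without animal 14). Nr3c1, the glucocorticoid receptor, fell, with 95.0, 129, 100 and 79.3 CPM in hippocampus and 120 to 149 CPM in cortex. Of the 10 genes of this list, 4 rose and 2 fell, and Fkbp5, a co-chaperone induced by glucocorticoids, was among those that rose. Over all genes 9.43% rose and 11.6% fell.

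Immediate early genes, which neurons induce within minutes of activity, set hippocampus 14 apart from every other hippocampus library. Their summed level was 523, 2380, 833 and 733 CPM in hippocampus 12, 14, 17 and 20, against 1270, 1440, 1230 and 1250 CPM in cortex. The highest sum in the other 25 animals was 1110 CPM in hippocampus and 2000 CPM in cortex. Arc, a synaptic capsid-like protein, had 148, 894, 316 and 216 CPM in hippocampus and 463 to 580 CPM in cortex, and Fos had 14.2, 86.9, 29.3 and 34.7 CPM in hippocampus and 23.8 to 54.1 CPM in cortex. Without animal 14, 4 of 12 fell and 0 rose (median -0.42), against 11.6% and 9.43% of all genes. The 4 were Arc, Egr1, Ier2 and Dusp1. With all 4 animals the median was -0.11.

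Genes of myelin, oligodendrocyte precursors and microglia did not pass in these mice. Of 12 myelin genes, 12 oligodendrocyte precursor genes and 12 microglia genes, 0 passed in either direction, with or without animal 14, and 0 without the block. Without animal 14 the median log2 fold changes were -0.15, 0.00 and -0.10, and 0, 1 and 0 of them had an unadjusted p under 0.05 in edgeR. Myelin genes varied from animal to animal, with sums of 5110, 5490, 6570 and 3600 CPM in hippocampus and 7440, 6300, 4470 and 4770 CPM in cortex. In the other 25 animals, where 30.9% of all genes were called higher and 31.3% lower, 9 of 12 microglia genes, 6 of 12 precursor genes and 3 of 12 myelin genes passed higher and none lower, with medians of 0.25, 0.20 and 0.16. Of 10 endothelial genes, 1 passed higher and 8 lower there. Astrocyte genes had 5 higher and 2 lower of 14 without animal 14, against 9.43% and 11.6% of all genes. Gfap, the intermediate filament of astrocytes, had 496, 229, 448 and 369 CPM in hippocampus and 121, 185, 91.4 and 99.1 CPM in cortex; it was higher in 4 of 4 animals and passed without the block (log2 fold change 1.63 ± 0.27 SE, edgeR adjusted p = 0.037, and 2.07 ± 0.10 without animal 14). Slc1a2, the main glutamate transporter of astrocytes, had 1470, 1900, 1570 and 1680 CPM in hippocampus and 1820 to 2020 CPM in cortex. Without animal 14, 1 of 10 endothelial genes fell, which is near the 11.6% of all genes called lower. Their median log2 fold change was -0.26, against -0.25 in the other 25 animals, and 1 of the 10 was positive. In edgeR 7 of the 10 had an unadjusted p under 0.05, against 5253 of the 16011 genes tested. Of 10 mural cell and fibroblast genes 2 rose without animal 14, the matrix proteoglycan genes Dcn and Lum, against 9.43% of all genes called higher. Dcn had 48.6, 16.8, 25.6 and 70.5 CPM in hippocampus and 5.35 to 12.5 CPM in cortex, with no overlap.

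Choroid plexus and ependyma genes summed to 202, 198, 528 and 140 CPM in hippocampus 12, 14, 17 and 20, against 299, 215, 297 and 257 CPM in cortex. Most of the cortex sums was 1 gene, Enpp2, at 279, 176, 266 and 247 CPM, against 131, 183, 255 and 102 CPM in hippocampus. The sums therefore do not show the direction of the other members. Ttr, transthyretin of the choroid plexus, had 28.9, 4.52, 217 and 18.2 CPM in hippocampus and 2.28 to 22.3 CPM in cortex, so hippocampus 17 was far above the rest. Folr1, Aqp1, Otx2 and Cldn2 were low but also highest in hippocampus 17, at 2.87, 2.15, 1.97 and 1.44 CPM. Without animal 14, 5 of 8 tested passed higher and 1, Enpp2, lower, against 9.43% and 11.6% of all genes. The part of choroid plexus in the result for Ttr was not tested. Thalamic genes summed to 124 to 142 CPM in hippocampus and 104 to 140 CPM in cortex, with cortex 14 the highest of the cortex libraries. The 8 cerebellar genes summed to 11.0 to 26.4 CPM in hippocampus and 25.1 to 32.1 CPM in cortex, against 3960 to 4760 CPM in the young cerebellum. Their defining members Gabra6, En2 and Barhl1 were at 0.294 CPM or less in all 8 libraries, and Pcp2 stood at 3.17 to 6.06 CPM. Car8, a carbonic anhydrase-related protein of Purkinje cells, had 7.25, 13.9, 4.22 and 14.3 CPM in hippocampus and 21.3, 17.5, 19.4 and 24.9 CPM in cortex, and fell without animal 14 (log2 fold change -1.60 ± 0.23 SE, edgeR adjusted p = 0.00106).

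Age was read from the same contrast in 3 naive mice of 18 months. edgeR called 2927 of 14659 genes between their hippocampus and cortex (20.0%), and the test of whether the regional difference itself differed between 18 and 2 months called 0 of 16943 genes (0.0%), with 403 at an unadjusted p under 0.05. Leaving out the animals with low Prox1 also gave 0, with 867 at an unadjusted p under 0.05. Fibcd1 had a log2 fold change of 3.81 at 18 months, 3.07 in the 4 mice of 2 months and 3.65 without animal 14. Scn4b had -3.84 at 18 months, -2.95 in the 4 mice of 2 months and -3.61 without animal 14. Of 104 genes followed singly, 5 had an unadjusted p under 0.05 for the difference, Lct, Tmem215 and Csf1r among them, named after their values were seen. Lct had a log2 fold change of 5.07 at 18 months, 2.02 in the 4 mice of 2 months and 2.96 without animal 14. With all 4 mice its difference between the ages was 2.99 ± 1.09 (SE, edgeR adjusted p = 1.0). The difference was positive for 12 of 12 myelin genes, 12 of 12 precursor genes and 12 of 12 microglia genes, and for 8261 of the 16943 genes tested, with medians of 0.64, 0.34, 0.32 and -0.01. Members of a list share cells and libraries, so these counts are descriptions. With 3 and 4 mice, the absence of calls does not show that the ages are alike. The labels give the mice of 18 and of 2 months different code numbers, whose meaning they do not state. Age therefore cannot be separated here from what these codes stand for.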

How the data were processed

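Homogenized tissue gave RNA (RNeasy), which Smart-Seq2 turned into cDNA and Nextera XT into libraries that do not mark strand, per the labels' protocols. Per the submitters' processing notes, Trim Galore 0.3.7, STAR 2.5.3a, GRCm38 and DESeq2 were used; the counting tool and annotation are not given in the sources used here. The deposited table holds the authors' raw, unnormalized counts for 35486 gene symbols.

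Counts were analysed in R 4.3.3 with edgeR 4.0.16: TMM factors, filterByExpr (minimum count 10, minimum total 15), quasi-likelihood test, animal as block and region as term, Benjamini-Hochberg adjustment over all genes tested, threshold 0.05. The standard error (SE) is the absolute log2 fold change over the square root of the F statistic. CPM are counts scaled to a library total of 1000000; ratios per animal used CPM plus 0.5. Alternatives used DESeq2 1.42.0 and limma 3.58.1. The numbers pair the samples because the labels give both regions of a mouse the same number. Deviations from the region means correlated at 0.077, -0.220, -0.011 and -0.034 within animals 12, 14, 17 and 20. Between different animals they correlated at -0.17 to 0.188, so these values show no closer likeness within an animal. Each label also carries a code number before the animal number. It is the same for all young mice, and all older mice carry other codes. The labels do not say what this code stands for.

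Members and gene lists were chosen with earlier results of these data known. Named genes were Prox1, up to 12 per direction among calls whose regions do not overlap, with a mean of at least 5 CPM, and members of each list. As none passed, the same rule was applied, after the values were seen, to the test without the block and, without the criterion on overlap, to the other 25 animals; further list members were named after their values were seen. Some genes that met these rules are left out of the text and plots, while counts and sums include them. Near-identical gene copies may share counts. Without molecular identifiers, amplification adds noise to the counts. Simulated counts with known changes served to test the scripts. Libraries of the cerebellum enter only as ranges, and the second experiment is not used here.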

Additional observations from a re-analysis of the deposited data

Results flagged for a closer look

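Of 158 groups of 4 libraries checked for a value far from the other 3, 16 stood out, where chance gives about 1 in 20, or 7.9. Hippocampus 14 was the highest of the 4 hippocampus libraries in the summed level of immediate early genes (2380 CPM, others 523 to 833), in Trbc2 (5.35 CPM, others 0.00 to 0.226), Rspo1 (20.3 CPM, others 1.35 to 2.94), Cd6 (3.09 CPM, others 0.00 to 0.0897) and Tcap (3.81 CPM, others 0.551 to 1.08). All 4 of these single genes were among the 12 of largest decrease in the hippocampus of the other 25 animals. Cortex 14 was the highest of the 4 cortex libraries in C1ql2 (3.43 CPM, others 0.00 to 0.396), Krt2 (1.47 CPM, others 0.00), Gpr101 (3.92 CPM, others 0.00 to 0.19) and the thalamic sum (140 CPM, others 104 to 110), and the lowest in Cd6 (3.13 CPM, others 6.55 to 6.84). C1ql2, Krt2 and Gpr101 were among the 12 genes of largest increase in the hippocampus of the other 25 animals. The single genes checked came mainly from those sets of 12 and from the calls without the block. Both memberships therefore follow largely from that choice.

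Hippocampus 17 was the highest of the 4 in choroid plexus and ependyma genes (528 CPM, others 140 to 202) and in Egfem1 (18.7 CPM, others 13.8 to 14.2), and the lowest in endothelial genes (289 CPM, others 343 to 354). Hippocampus 20 was the highest in Penk (80.4 CPM, others 31.7 to 36.7). Cortex 20 was the highest in cerebellar neuron genes (32.1 CPM, others 25.1 to 25.7) and in genes of the mitochondrial genome (27900 CPM, others 25400 to 25600).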

How the results depend on the processing

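Against 0 calls with the replicate block in 4 animals, edgeR gave 78 with no replicate block, 79 with no filter on low counts, 2151 in 1 fit of all 58 libraries, 4073 without the low-Prox1 animals 14 and 20, and 3574 without the block and without those 2 hippocampus libraries. DESeq2 gave 453 and limma-voom 2268, both with the replicate block. Relative log expression size factors gave 0. Leaving out 1 animal gave 0 to 3366 calls, the highest without animal 14; the cause was not tested. Without the block, leaving out 1 library gave 6 to 3180 calls. The alternatives without the block that left out libraries, and those that left out low-Prox1 animals in the other comparisons, were chosen after seeing the data. Plekha2 (-0.03) changed sign, to 0.09 with no block, 0.19 with limma-voom, -0.26 to 0.17 when each animal was left out in turn (0.17 without animal 14, 0.13 without animal 20), 0.01 with 58 libraries, 0.37 without both low-Prox1 animals and 0.56 also without the block; it passed in none of these. Of 551 values of named genes, 251 kept direction and call, 293 kept direction and passed, and 7 reversed. In the other 25 animals, calls numbered 10637 to 11657, and the age test gave 0 throughout. Depth limits hippocampus 20 most.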
